A study of Mus musculus with 12 samples.

Results

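The comparison was between *Mirc11-/-* and wildtype bone marrow-derived macrophages polarized to the M2 state. It rests on 6 of the 12 RNA sequencing libraries of the series, 3 of each genotype, chosen by their titles. *Mirc11-/-* mice lack the *Mirc11* locus, which encodes miR-23a, miR-27a and miR-24-2. Both genotypes were of strain C57BL/6 and were 6 to 8 weeks old. Marrow was grown for 7 days in medium conditioned by L929 cells, a source of M-CSF, and the macrophages were then polarized for 24 h with 20 ng/ml IL-4 and 20 ng/ml IL-13. Wildtype libraries are Wt2260M2, Wt2261M2 and Wt2262M2, and *Mirc11-/-* libraries are Ako2271M2, Ako2272M2 and Ako2273M2. Values are given in this order throughout. The titles spell the knockout Ako, which was read as *Mirc11-/-*. Nothing in the labels ties each library to its own animal, so p-values speak for the spread among these libraries, which may be technical. No number is shared between the genotypes, so genotype and whatever else the numbers mark cannot be told apart.

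The unit is FPKM, fragments scaled to transcript length and sequencing depth. The table lists 23863 genes. Those whose 6 libraries averaged 1 FPKM or more, 10124 genes, were tested, and 13739 were not. Changes are differences of log2(FPKM + 1), *Mirc11-/-* minus wildtype, which understate the change of weakly expressed genes. A gene was called when its Benjamini-Hochberg adjusted p in limma, over all tested genes, was under 0.05.

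IL-4 and IL-13 signal through receptors that share the IL-4 receptor alpha chain and activate the transcription factor STAT6. In macrophages this gives the alternatively activated or M2 state, known for arginase, chitinase-like and resistin-like proteins, lectins and chemokines, and for parts in tissue repair and defence against helminths. MicroRNAs bind messenger RNAs mainly through their seed, the bases near the 5′ end of the mature strand, and lower the stability and translation of transcripts with a matching site in the 3′ untranslated region (UTR).

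The mature strands of the deleted cluster are shown because the sites counted later are matches to their seeds. In RefSeq on GRCm38.p6 the 3 hairpins lie on the plus strand of chromosome 8, with the 3p strands at chr8:84208563-84208583, chr8:84208727-84208747 and chr8:84208875-84208896. Capitals mark the seed, bases 2 to 8.
mmu-miR-23a-3p: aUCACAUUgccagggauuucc
mmu-miR-27a-3p: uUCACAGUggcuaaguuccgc
mmu-miR-24-3p: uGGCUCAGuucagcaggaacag

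The seed of miR-27a-3p is also that of miR-27b-3p, which lies outside the deleted cluster, and the miR-24-3p seed is also that of miR-5124b, miR-6369, miR-6410 and miR-6413. The seeds of miR-23a-3p and miR-27a-3p share their first 5 bases, UCACA. *Mir23a*, *Mir27a* and *Mir24-2* were all listed at 0 FPKM in the 6 M2 libraries, so the table does not check the genotype.

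The treatment field of 3 of the 6 libraries, Ako2273M2, Wt2261M2 and Wt2262M2, gives LPS and interferon gamma, against the title. Polarization markers followed the titles. *Mrc1*, encoding the mannose receptor of M2 cells, was at 229.9 to 301 FPKM in the 6 libraries titled M2 and at most 0.403 FPKM in those titled M1. *Nos2*, encoding the inducible nitric oxide synthase of inflammatory macrophages, was at 0.802 to 2.26 FPKM in M2 and at least 938 FPKM in M1. All 20 macrophage identity genes passed the filter, and 1 was called, *Mpeg1*, encoding a pore-forming protein of macrophages. It was at 638, 605 and 659 FPKM in wildtype and 522, 487 and 502 FPKM in *Mirc11-/-* libraries (log2 change -0.33, adjusted p = 0.0293), a call lost in all 6 fits that leave out 1 library (adjusted p up to 0.129). Of the defining genes of other cell types, 5 lists were near 0. The sum over 6 fibroblast genes was at most 1.53 FPKM, over 5 erythroid genes at most 0.0929 FPKM, over 6 mast cell and basophil genes at most 0.581 FPKM, over 6 dendritic cell genes at most 1.46 FPKM and over 5 B cell genes at most 1.76 FPKM. The B cell sums did not overlap, at 0.488 to 1.12 FPKM in wildtype against 1.32 to 1.76 FPKM in *Mirc11-/-* libraries. The 1 B cell gene tested was not called (log2 change 0.56). The erythroid sums were apart the other way, at 0.0605 to 0.0929 FPKM in wildtype against 0 to 0.0461 FPKM in *Mirc11-/-* libraries. The 9 neutrophil genes summed to between 2.08 and 6.33 FPKM in wildtype, against 1.58 to 2.82 FPKM in *Mirc11-/-* libraries. The 8 T and NK cell genes summed to between 11.5 and 13.2 FPKM in wildtype, against 7.29 to 10.1 FPKM in *Mirc11-/-* libraries. Nearly all of that sum was *Cd4*, which macrophages can also express. *Cd4* was called lower in the limma fit (log2 change -0.55, adjusted p = 0.0429). That call held in 1 of the 6 fits that leave out 1 library (adjusted p up to 0.174). The 4 eosinophil genes summed to between 12.9 and 17.0 FPKM with overlap, and *Epx* and *Prg2* among them were below the filter. The 5 endothelial genes summed to between 5.06 and 7.16 FPKM in wildtype, against 7.25 to 9.10 FPKM in *Mirc11-/-* libraries, and so were higher in every *Mirc11-/-* library. Of these, *Pecam1* and *Kdr* were tested and not called (log2 change 0.48 and -0.21), and *Cdh5*, *Emcn* and *Tek* were below the filter. The part of these genes in the results was not tested. The depth of the libraries, read from the smallest steps between low values, was 0.813 to 1.11 times that of Wt2260M2.

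Of the 10124 genes, 335 were called, which is 3.31% of those tested. In *Mirc11-/-* cells 193 were higher (1.91%) and 142 were lower (1.40%). The libraries of the genotypes did not overlap for 2399 genes (23.7%), among them all 335 called genes, and 1787 genes (17.7%) had an unadjusted p under 0.05. Counts within the gene lists below stand beside these shares of all tested genes. Most changes were small. The median size among called genes was 0.41 on the log2 scale, 231 of the 335 changed by less than 0.5, and 9 rose and 9 fell by at least 1. The median over all tested genes was 0.0032. The test was repeated with each library left out in turn, which gives 6 leave-one-out fits. The count was 67 without Ako2271M2, 80 without Wt2260M2, 107 without Ako2272M2, 139 without Wt2261M2, 231 without Ako2273M2 and 280 without Wt2262M2. Of the 335 genes, 56 were called in all of these fits and 76 in none. Another 21 tested genes had a change of at least 1 that was not called. In 20 of them the genotypes overlapped and in 18 at least 1 library was listed at 0, and they are mainly genes of small RNAs.

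**Figure D1:**
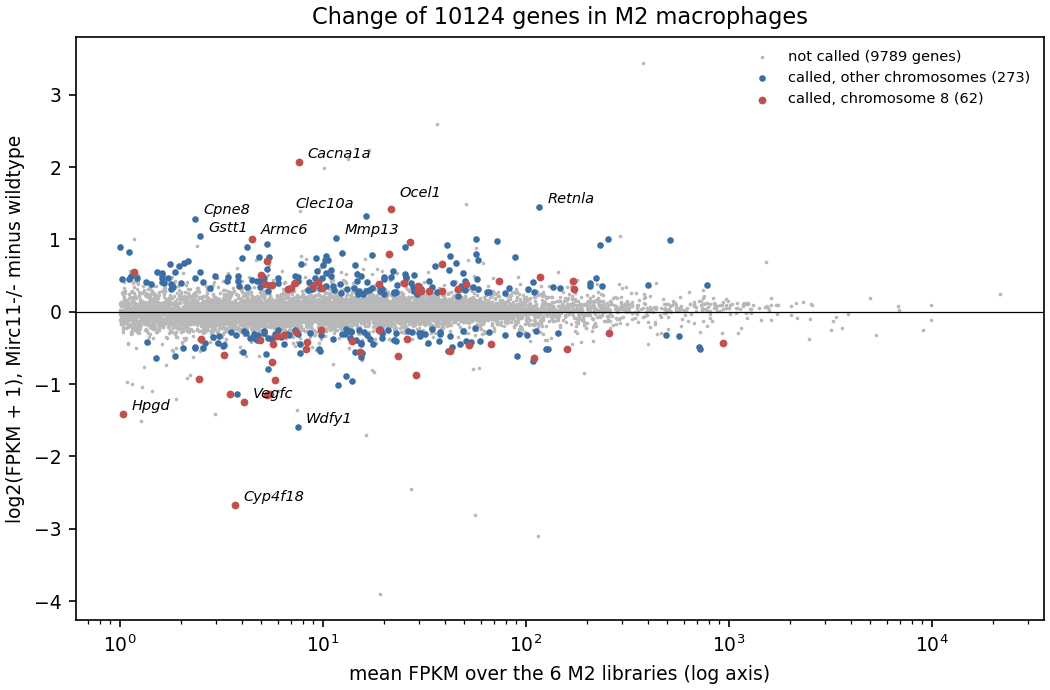
Change of each tested gene, as the difference of log2(FPKM + 1) between *Mirc11-/-* and wildtype, against its mean FPKM over the 6 M2 libraries on a log axis. Grey points are the genes not called, blue points the 273 called genes of other chromosomes and red points the 62 called genes of chromosome 8. *Cyp4f18* lies lowest and *Cacna1a* highest among the called genes.

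Markers of alternative activation are the genes by which the response to IL-4 and IL-13 is usually read. Of 31 in the table, 29 were tested, 3 were higher and none was lower, with a median change of 0.12 against 0.0032 for all genes. Of the 29 changes 17 were positive. In 8 genes the *Mirc11-/-* libraries lay wholly above the wildtype ones and in 4 wholly below, against 11.8% and 11.9% of all tested genes. The markers with values given here all had positive changes. *Arg1*, encoding the arginase that turns arginine into ornithine and urea, was at 42.6, 33.6 and 36.7 FPKM in wildtype and 79.2, 83.9 and 66.2 FPKM in *Mirc11-/-* libraries. Every *Mirc11-/-* library lay above every wildtype library, and the rise was 1.00 on the log2 scale (SE 0.11, adjusted p = 0.00435). *Retnla*, encoding the secreted resistin-like molecule alpha, was at 86.7, 38.4 and 65.7 FPKM in wildtype and 212, 177 and 123 FPKM in *Mirc11-/-* libraries. Its libraries spread more widely in each genotype, without overlap, and it rose by 1.45 (SE 0.29, adjusted p = 0.04). *Clec10a*, encoding a galactose-binding lectin of M2 cells, was at 10.2, 6.29 and 10.7 FPKM in wildtype against 23.9, 26.7 and 20.7 FPKM in knockout libraries. Here the lowest *Mirc11-/-* library was well above the highest wildtype library, with a rise of 1.32 (SE 0.18, adjusted p = 0.0103). The call on *Arg1* held in all 6 leave-one-out fits, that on *Clec10a* in 4 and that on *Retnla* in 1 (adjusted p up to 0.157, without Ako2271M2).

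The other markers were not called. *Chil3*, encoding the chitinase-like protein Ym1, was at 32.7, 60.5 and 28.3 FPKM in wildtype and 71.4, 61.8 and 57.5 FPKM in *Mirc11-/-* libraries. The wildtype library Wt2261M2 lay among the *Mirc11-/-* libraries, and the change of 0.71 was not called (adjusted p = 0.176). *Ccl24*, encoding eotaxin 2, was at 1.701, 1.298 and 0.966 FPKM in wildtype against 4.01, 4.46 and 1.99 FPKM in knockout libraries. These groups did not overlap, but the *Mirc11-/-* libraries differed among themselves and the change of 0.91 missed the threshold (adjusted p = 0.0711). *Mrc1* was at 245, 241 and 238 FPKM in wildtype against 262, 229.9 and 301 FPKM in knockout libraries, with overlap (log2 change 0.12). The 31 markers summed to between 1685 and 1930.4 FPKM in wildtype libraries and between 1809 and 1899 FPKM in *Mirc11-/-* libraries, and these sums overlapped.

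Among genes of IL-4 and IL-13 receptor signalling, 2 of 17 tested were higher and 1 was lower. *Il4ra*, encoding the chain that both cytokines use, was at 17.5, 15.3 and 18.1 FPKM in wildtype and 22.2, 22.05 and 20.6 FPKM in *Mirc11-/-* libraries. The ranges were separate and close, and the rise was 0.34 (adjusted p = 0.0443). *Jak3*, the kinase of the common gamma chain, rose by 0.33 (adjusted p = 0.0185). It was at 6.13, 5.86 and 6.31 FPKM in wildtype against 8.16, 7.903 and 7.73 FPKM in knockout libraries. *Jak3* lies on chromosome 8 with the deleted cluster. Without its members on that chromosome the list held 1 higher and 1 lower gene. *Il13ra1*, whose product joins the IL-4 receptor alpha chain to form the receptor for IL-13, was at 2.98, 3.62 and 3.03 FPKM in wildtype against 1.96, 1.795 and 2.16 FPKM in knockout libraries. It fell by 0.50 (adjusted p = 0.0214), so the chains of this receptor moved in opposite directions. *Stat6* was at 62.02, 56.9 and 62.7 FPKM in wildtype against 62.6, 62.9 and 63.5 FPKM in knockout libraries, with overlap (log2 change 0.06). The call on *Il4ra* held in 1 of the 6 leave-one-out fits, and those on *Jak3* and *Il13ra1* in 2 each, with adjusted p up to 0.179, 0.101 and 0.0986.

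Chemokines had the highest median change of the lists with at least 5 tested genes, 0.38. Of 16 tested, 3 were higher, none was lower, 7 had *Mirc11-/-* libraries wholly above the wildtype ones and 1 wholly below, against 11.8% and 11.9% of all tested genes. *Ccl2*, encoding the main ligand of CCR2 that draws monocytes, was at 18.3, 14.8 and 19.6 FPKM in wildtype and 33.2, 33.96 and 32.8 FPKM in *Mirc11-/-* libraries. The *Mirc11-/-* libraries were nearly equal, and it rose by 0.89 (SE 0.092, adjusted p = 0.00327) and kept its call in all 6 leave-one-out fits. *Ccl7*, another CCR2 ligand, was at 27.5, 26.5 and 39.5 FPKM in wildtype against 47.1, 57.3 and 55.7 FPKM in knockout libraries. All *Mirc11-/-* libraries were higher, by 0.78 (SE 0.15, adjusted p = 0.0351). *Ccl5*, encoding a chemokine that draws T cells and monocytes, was far more abundant, at 343, 272 and 423 FPKM in wildtype and 629, 805 and 608 FPKM in *Mirc11-/-* libraries. Its rise was 0.99 (SE 0.16, adjusted p = 0.0232). The call on *Ccl5* held in 3 of the 6 leave-one-out fits and that on *Ccl7* in 1 (adjusted p up to 0.0929 without Wt2260M2 and 0.129 without Wt2260M2). Of 13 tested chemokine receptors, 1 was called, *Ccrl2*, a chemerin-binding receptor that fell by 0.27 (adjusted p = 0.0364) and was called in none of the leave-one-out fits (adjusted p up to 0.157).

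Genes of inflammatory activation summed to 906 to 1570.4 FPKM in the M2 libraries and at least 24976 FPKM in the M1 libraries. Of 30 listed genes 21 were tested, with 3 higher, *Il1b*, *Marco* and *Ccl5*, none lower and a median of 0.14. *Il1b*, encoding interleukin 1 beta, was at 3.67, 2.703 and 3.64 FPKM in wildtype and 7.67, 8.21 and 5.97 FPKM in *Mirc11-/-* libraries. The ranges were separate, and it rose by 0.93 (SE 0.13, adjusted p = 0.0107). *Il1rn*, encoding the antagonist that blocks the same receptor, was at 11.4, 11.5 and 12.8 FPKM in wildtype against 16.2, 18.4 and 18.2 FPKM in knockout libraries. It rose too, by 0.52 (SE 0.069, adjusted p = 0.0103), so agonist and antagonist were both higher. *Marco*, encoding a scavenger receptor for bacteria and particles, was at 67.7, 59.97 and 67.9 FPKM in wildtype against 132, 121 and 83.5 FPKM in knockout libraries. It rose by 0.75 (adjusted p = 0.0428), with Ako2273M2 closest to wildtype. *Tnf* was at 13.9, 14.97 and 14.3 FPKM in wildtype against 12.96, 11.99 and 11.7 FPKM in knockout libraries, with a change of -0.22 that was not called (adjusted p = 0.0868). *Nos2* (log2 change 0.41, adjusted p = 0.244) and *Il10* (0.20, adjusted p = 0.565) were not called, and *Il6* was below the filter. The calls on *Il1rn*, *Il1b* and *Marco* held in 5, 4 and 1 of the 6 leave-one-out fits (adjusted p up to 0.0561, 0.0663 and 0.156).

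All 34 type I interferon response genes passed the filter and limma called none (0 at an unadjusted p under 0.05), with 29 positive changes and a median of 0.09. The wildtype libraries spread widely. Their summed level was 2935 FPKM in Wt2260M2, 1992 FPKM in Wt2261M2 and 4177 FPKM in Wt2262M2, and 3119, 3691 and 2922 FPKM in the *Mirc11-/-* libraries. *Irf7*, encoding a transcription factor of this response, was at 262, 144 and 374 FPKM in wildtype against 308, 379 and 273 FPKM in knockout libraries, with Ako2272M2 just above the wildtype range and the other *Mirc11-/-* libraries inside it. *Ccl5* and *Ccl2* were also lowest in Wt2261M2, and the part of this library's interferon level in their changes was not tested. Without Wt2261M2 the change of *Ccl5* was 0.82 and that of *Ccl2* 0.78, against 0.99 and 0.89 with it.

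**Figure D2:**
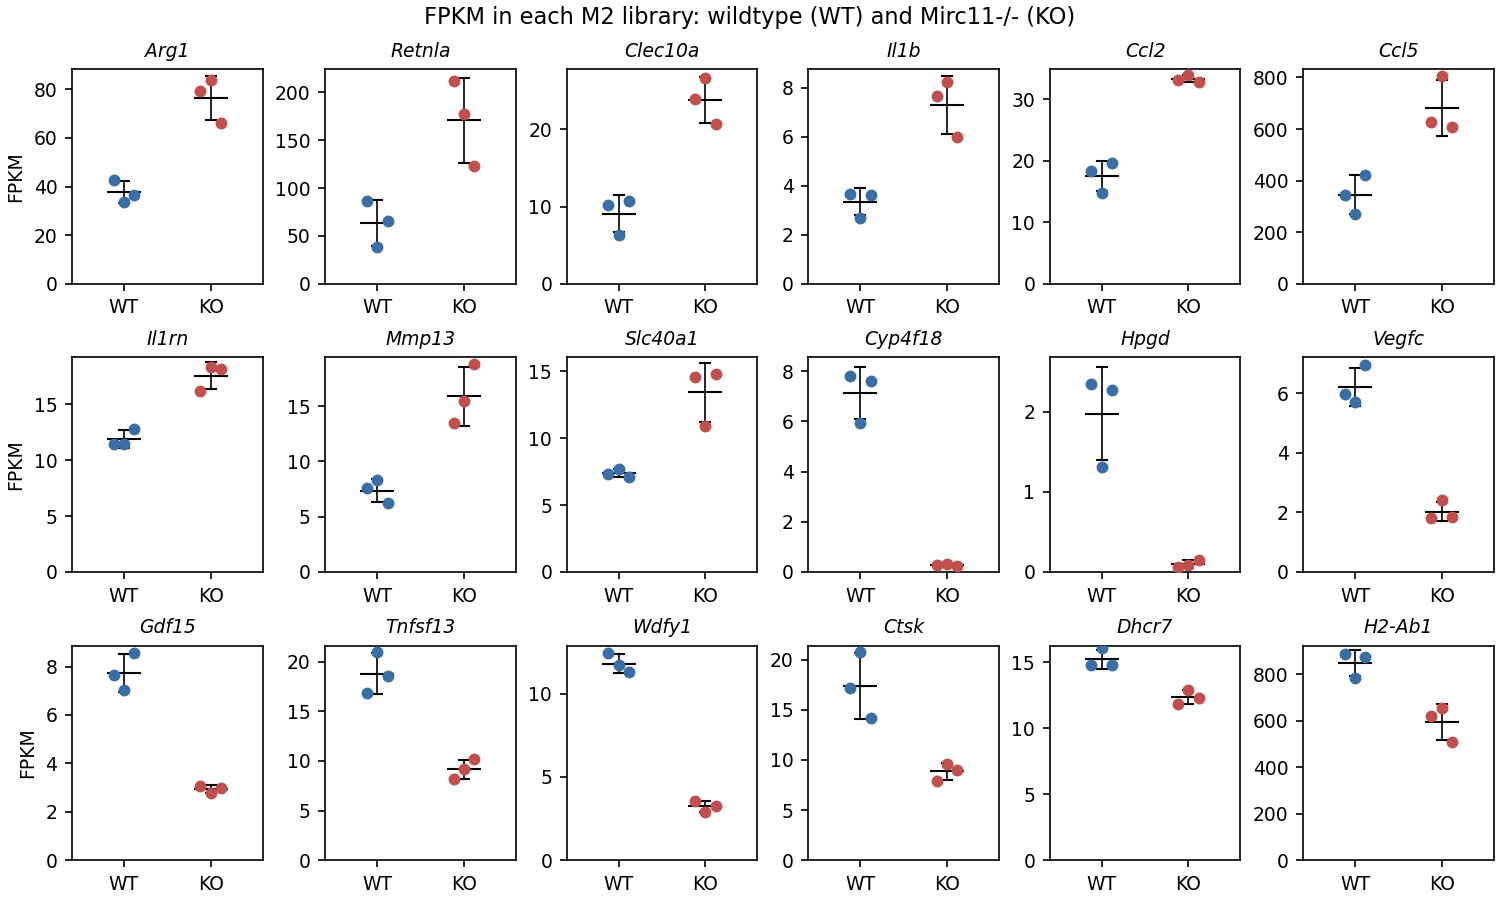
FPKM of 18 genes in each of the 6 M2 libraries, with wildtype in blue and *Mirc11-/-* in red. Bars give the mean and SD of 3 libraries, and each axis starts at 0. In the 9 genes from *Arg1* to *Slc40a1* the *Mirc11-/-* libraries lie above the wildtype ones, and in the 9 from *Cyp4f18* to *H2-Ab1* below.

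Several secreted mediators and enzymes of lipid mediators were lower, among them the gene with the largest fall of all those called. *Cyp4f18*, encoding a cytochrome P450 that hydroxylates leukotriene B4 in mouse, was at 7.82, 5.95 and 7.61 FPKM in wildtype and 0.274, 0.309 and 0.234 FPKM in *Mirc11-/-* libraries. It fell by 2.67 (SE 0.10, adjusted p = 1.59e-05). *Hpgd*, encoding the dehydrogenase that inactivates prostaglandins, was at 2.34, 1.31 and 2.27 FPKM in wildtype against 0.0638, 0.0873 and 0.154 FPKM in knockout libraries. The *Mirc11-/-* libraries were close to 0, and the fall was 1.41 (SE 0.14, adjusted p = 0.00302). These were the only calls among 17 tested enzymes of prostaglandins and leukotrienes, both are degrading enzymes, and both genes lie on chromosome 8 with the deleted cluster. Without its 3 members on that chromosome the list held no call and its median moved from -0.07 to 0.02. *Hpgds*, encoding haematopoietic prostaglandin D synthase, was at 27.4, 26.3 and 27.6 FPKM in wildtype against 22.9, 20.3 and 23.3 FPKM in knockout libraries, without overlap, and its change of -0.28 was just outside the threshold (adjusted p = 0.0532).

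Of 23 growth factors and repair mediators tested, 3 were lower and 1, *Il1rn*, was higher. Of all tested genes 1.40% were lower and 1.91% higher. *Vegfc*, a growth factor of lymphatic vessels, was at 5.98, 5.71 and 6.95 FPKM in wildtype and 1.83, 2.41 and 1.85 FPKM in *Mirc11-/-* libraries. It fell by 1.25 (SE 0.10, adjusted p = 0.000963). *Gdf15*, a stress-induced cytokine of the TGF-beta family, was at 7.66, 7.01 and 8.58 FPKM in wildtype against 3.08, 2.76 and 2.97 FPKM in knockout libraries and fell by 1.15 (SE 0.076, adjusted p = 0.000389). In both genes the groups were far apart, and both lie on chromosome 8. *Pdgfa*, on chromosome 5, fell by 0.29 (adjusted p = 0.0429) and kept its call in 1 of the 6 leave-one-out fits (adjusted p up to 0.178). *Tnfsf13*, encoding the B cell and plasma cell factor APRIL, was at 16.8, 20.96 and 18.6 FPKM in wildtype against 8.199, 9.15 and 10.1 FPKM in knockout libraries. It fell by 0.96 (SE 0.094, adjusted p = 0.00297), the only call among 15 tested genes of the TNF superfamily and its receptors. The calls on *Cyp4f18*, *Hpgd*, *Vegfc*, *Gdf15* and *Tnfsf13* all held in the 6 leave-one-out fits.

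Of 28 Toll-like receptors and adaptors tested, 2 were lower, against 1.40% of all tested genes. *Wdfy1*, encoding an endosomal FYVE-domain protein, was at 12.4, 11.7 and 11.3 FPKM in wildtype and 3.58, 2.92 and 3.25 FPKM in *Mirc11-/-* libraries. It fell by 1.59 (SE 0.070, adjusted p = 4.84e-05), the largest fall outside chromosome 8, and held its call in every leave-one-out fit. *Tlr2*, encoding the receptor for bacterial lipoproteins, was at 16.9, 18.2 and 18.97 FPKM in wildtype against 14.3, 13.5 and 11.3 FPKM in knockout libraries and fell by 0.44 (adjusted p = 0.0357), a call that held in 1 of these fits (adjusted p up to 0.0991, without Wt2261M2). None of 24 tested negative regulators of NF-kB was called by limma (4 at an unadjusted p under 0.05, against 17.7% of all tested genes). Their median was -0.02.

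Genes of the lectin and scavenger receptor list moved in both directions. Of 25 tested, 4 were higher and 2 lower. Besides *Clec10a* and *Marco*, *Cd5l*, encoding a secreted scavenger-receptor protein of tissue macrophages, was at 36.1, 39.3 and 48.2 FPKM in wildtype and 62.5, 71.7 and 82.8 FPKM in *Mirc11-/-* libraries. It rose by 0.80 (SE 0.13, adjusted p = 0.0185). *Colec12*, encoding a scavenger receptor with a lectin domain, rose by 0.37 (adjusted p = 0.0357). *Clec5a*, encoding a receptor that signals through DAP12, was at 21.2, 21.3 and 19.4 FPKM in wildtype against 15.6, 13.99 and 14.97 FPKM in knockout libraries and fell by 0.45 (adjusted p = 0.0106). *Scarb2*, encoding a lysosomal membrane protein, fell by 0.31 (adjusted p = 0.0357). The calls held in 3, 0, 5 and 1 of the 6 leave-one-out fits.

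MHC class II genes were among the most abundant called. *H2-Ab1* was at 886, 785 and 874 FPKM in wildtype and 621, 654 and 509 FPKM in *Mirc11-/-* libraries and fell by 0.52 (adjusted p = 0.036). *H2-Aa*, encoding the partner chain of the same molecule, was at 877, 783 and 848 FPKM in wildtype against 606, 663 and 526 FPKM in knockout libraries and fell by 0.49 (adjusted p = 0.0354). *H2-Eb1* was separate too, at 487, 433 and 462 FPKM in wildtype against 345, 381 and 292 FPKM in knockout libraries, but its change of -0.44 was not called (adjusted p = 0.0548). *Ifi30*, encoding the thiol reductase of antigen processing, went the other way, at 158, 162 and 137 FPKM in wildtype against 210.5, 233 and 176 FPKM in knockout libraries (log2 change 0.43, adjusted p = 0.0786). *Ifi30* lies on chromosome 8 with the deleted cluster. Without members on that chromosome the median of the 13 tested genes of MHC class II presentation moved from -0.12 to -0.20. The calls on *H2-Ab1* and *H2-Aa* each held in 1 of the 6 leave-one-out fits (adjusted p up to 0.148 and 0.142). In whole cultures, fewer cells with these transcripts and less transcript per cell cannot be told apart.

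Of 19 integrins and adhesion molecules tested, 3 were lower and 1 higher, with a median of -0.21 and 4 positive changes. *Itgal*, encoding the alpha chain of LFA-1, was at 50.1, 51.6 and 50.8 FPKM in wildtype and 41.6, 34.9 and 32.3 FPKM in *Mirc11-/-* libraries. The wildtype libraries were nearly equal and the fall was 0.48 (adjusted p = 0.0281). *Itga5*, of the fibronectin receptor, fell by 0.28 (adjusted p = 0.0357) and *Itgb5* by 0.33 (adjusted p = 0.0296). *Icam2*, encoding an LFA-1 ligand, rose by 0.43 (adjusted p = 0.0349), at 2.702, 2.62 and 2.899 FPKM in wildtype against 3.92, 4.59 and 3.63 FPKM in knockout libraries. These calls held in 1, 0, 0 and 2 of the 6 leave-one-out fits. Among genes that bind or clear dying cells, *Pros1*, a bridge to TAM receptors, rose by 0.33 (adjusted p = 0.0471), a call that held in 1 of these fits. *Mfge8*, another bridge, was at 239, 306 and 204 FPKM in wildtype against 119, 121 and 178 FPKM in knockout libraries, and its change of -0.85 was just outside the threshold (adjusted p = 0.0519).

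Proteases of matrix and lysosome also divided. *Mmp13*, encoding a collagenase, was at 7.603, 8.28 and 6.199 FPKM in wildtype and 13.5, 15.4 and 18.8 FPKM in *Mirc11-/-* libraries. It rose by 1.01 (SE 0.13, adjusted p = 0.00793) and kept its call in 5 of the 6 leave-one-out fits. *Ctsk*, encoding the collagen-cleaving lysosomal cathepsin K, was at 17.1, 20.8 and 14.2 FPKM in wildtype against 7.93, 9.63 and 9.02 FPKM in knockout libraries. It fell by 0.89 (SE 0.13, adjusted p = 0.0127) and kept its call in 3. Of 20 matrix proteases and inhibitors tested, *Adam15* also rose, by 0.27, and *Timp2*, encoding a metalloproteinase inhibitor, fell by 0.30 (adjusted p = 0.0429 and 0.0362). These held in 1 and 0 of the 6 leave-one-out fits (adjusted p up to 0.186 and 0.168). Of 36 lysosomal genes 3 were lower, *Ctsk*, *Scarb2* and *Man2b1*, and none was higher, with a median of -0.05. Of all tested genes 1.40% were lower. *Man2b1*, which lies on chromosome 8, kept its call in 3 of these fits. Without its members on that chromosome the list held 2 lower genes.

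**Figure D3:**
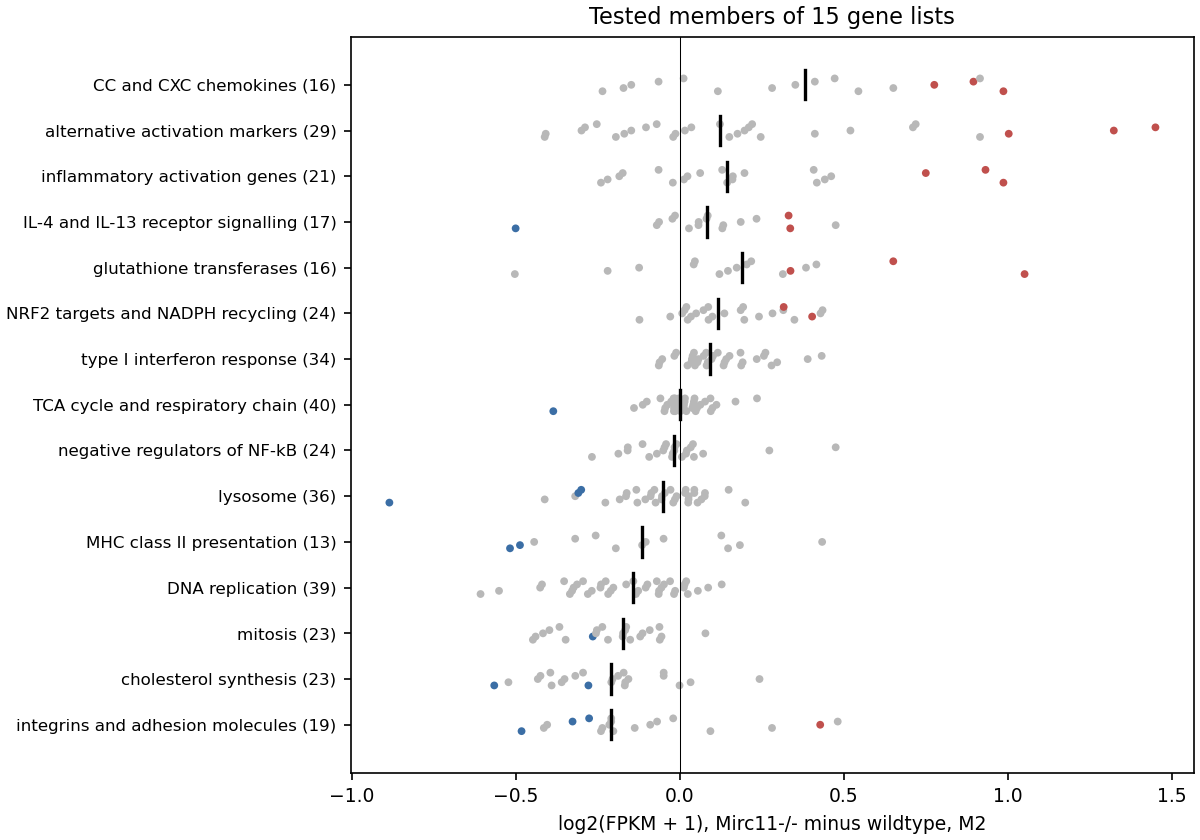
Change of the tested members of 15 gene lists, with the number tested in brackets. Each point is a gene, grey if not called, red if called higher and blue if called lower in *Mirc11-/-* cells, and the black bar is the median of the list. Chemokines have the highest median and integrins and cholesterol synthesis the lowest, and most points in every list are not called.

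Most cholesterol synthesis genes had negative changes. All 23 were tested, 2 were lower and none was higher, the median was -0.21 and 2 changes were positive. *Dhcr7*, encoding a reductase late in the pathway, was at 14.8, 16.04 and 14.8 FPKM in wildtype against 11.9, 12.9 and 12.3 FPKM in knockout libraries and fell by 0.28 (adjusted p = 0.0395). *Fdps* (-0.52, adjusted p = 0.0702) and *Cyp51* (-0.39, adjusted p = 0.0746) had separate groups and were not called in the fit to these libraries. The fit to all 12 libraries, which called more genes in all, called them (adjusted p = 0.0211 and 0.0237). In the leave-one-out fits each was called in 1 of 6 (adjusted p up to 0.219 and 0.232, without Wt2260M2). The list summed to between 347 and 435 FPKM in wildtype, and to between 316 and 335 FPKM in *Mirc11-/-* libraries, without overlap. The call on *Dhcr7* held in 0 of the 6 leave-one-out fits (adjusted p up to 0.174, without Ako2271M2).

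Fatty acid genes were divided, with 2 higher and 3 lower of 30 tested. *Fabp4*, encoding a fatty acid-binding protein of macrophages, was at 118, 158 and 126 FPKM in wildtype and 74.2, 84.5 and 91.1 FPKM in *Mirc11-/-* libraries. The fall was 0.68 (SE 0.12, adjusted p = 0.026). *Lpl*, encoding lipoprotein lipase, was at 1062, 1150.3 and 1029.6 FPKM in wildtype against 761, 772 and 881 FPKM in knockout libraries and fell by 0.43 (SE 0.078, adjusted p = 0.0319). *Cpt1a*, which brings fatty acids into mitochondria, fell by 0.27 (adjusted p = 0.0354). *Acsl1*, encoding an acyl-CoA synthetase, rose by 0.29 (adjusted p = 0.0361), and so did *Ppard*, named after its value was seen and encoding a fatty acid-sensing nuclear receptor, by 0.36 (adjusted p = 0.047). *Lpl* and *Acsl1* lie on chromosome 8. The calls on *Fabp4*, *Lpl*, *Cpt1a*, *Acsl1* and *Ppard* held in 3, 2, 0, 0 and 0 of the 6 leave-one-out fits.

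Central carbon metabolism held 1 call in each of its lists, together a share near the 3.31% of all tested genes. Of 40 TCA cycle and respiratory chain genes 1 was called, *Ogdh*, encoding a subunit of the 2-oxoglutarate dehydrogenase. It was at 26.2, 26.03 and 24.98 FPKM in wildtype and 19.7, 18.99 and 19.7 FPKM in *Mirc11-/-* libraries and fell by 0.39 (SE 0.047, adjusted p = 0.00676), with narrow ranges in each group. Of 21 glycolysis genes 1 was called, *Aldoc*, encoding an aldolase, at 7.07, 6.04 and 6.33 FPKM in wildtype against 4.29, 3.93 and 3.803 FPKM in knockout libraries. It fell by 0.58 (adjusted p = 0.00672). Both calls held in all 6 leave-one-out fits, and the medians of the lists were 0.00 and 0.07.

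Most genes of glutathione and redox metabolism had positive changes. Of 24 NRF2 targets and NADPH recycling genes, 2 were higher, none was lower and 22 changes were positive, with a median of 0.12. *G6pdx*, encoding the first enzyme of the pentose phosphate pathway, was at 92.01, 91.5 and 90.6 FPKM in wildtype and 116, 116 and 110.2 FPKM in *Mirc11-/-* libraries and rose by 0.32 (SE 0.047, adjusted p = 0.0154). *Gsr*, encoding glutathione reductase and lying on chromosome 8, was at 23.2, 21.7 and 20.1 FPKM in wildtype against 31.5, 29.2 and 26.2 FPKM in knockout libraries and rose by 0.40 (adjusted p = 0.0371). Of 16 glutathione transferases 3 were higher. *Gstp1* was at 9.72, 13.01 and 10.3 FPKM in wildtype against 18.1, 18.6 and 16.5 FPKM in knockout libraries and rose by 0.65 (SE 0.10, adjusted p = 0.0174). *Gstt1* was at 1.502, 0.711 and 1.66 FPKM in wildtype against 3.83, 4.49 and 2.82 FPKM in knockout libraries and rose by 1.05 (SE 0.19, adjusted p = 0.0278), and *Gstm5* rose by 0.34 (adjusted p = 0.0471). Reads of these transferases can be shared between close copies, which makes single values uncertain. *Slc40a1*, encoding ferroportin, the iron exporter, was at 7.33, 7.69 and 7.11 FPKM in wildtype against 14.5, 10.9 and 14.8 FPKM in knockout libraries. It rose by 0.77 (SE 0.11, adjusted p = 0.0111), the only call among 17 genes of haem and iron handling. The calls on *G6pdx*, *Gsr*, *Gstp1*, *Gstt1*, *Gstm5* and *Slc40a1* held in 4, 1, 3, 3, 0 and 4 of the 6 leave-one-out fits.

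Most proliferation genes had negative changes, and 1 was called. Of 39 DNA replication genes tested limma called none (17 at an unadjusted p under 0.05), 7 changes were positive and the median was -0.14. *Mcm3*, a subunit of the replicative helicase, was at 14.5, 16.03 and 12.97 FPKM in wildtype and 11.5, 11.2 and 12.4 FPKM in *Mirc11-/-* libraries (log2 change -0.28, adjusted p = 0.108). Of 23 mitosis genes 1 was called, *Smc4*, encoding a condensin subunit that fell by 0.27 (adjusted p = 0.0378), 1 change was positive and the median was -0.17. The call on *Smc4* was lost in all 6 leave-one-out fits (adjusted p up to 0.157). The 44 DNA replication genes summed to between 665 and 743 FPKM in wildtype and to between 647 and 685 FPKM in *Mirc11-/-* libraries, with overlap. The 32 mitosis genes summed to between 65.9 and 87.3 FPKM in wildtype, and to between 56.9 and 63.7 FPKM in *Mirc11-/-* libraries, without overlap. In M1 the medians of these lists were 0.02 and 0.02.

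The seeds of the cluster were then searched in 3′ UTRs. The longest annotated 3′ UTR (GENCODE M21) was found for 9695 of the 10124 genes. A site is a match to bases 2 to 8 of the microRNA, and an 8mer is such a match followed by A. The matches searched were AATGTGA for miR-23a-3p, ACTGTGA for miR-27a-3p and CTGAGCC for miR-24-3p. Beside genes without any site, the share called higher was larger and the share called lower smaller among genes with an 8mer, as a description without a test. Of 5754 genes without a site, 96 were higher (1.67%) and 92 lower (1.599%). Among 668 genes with a miR-23a-3p 8mer, 27 were higher (4.04%) and 4 lower (0.599%). Among 593 genes with a miR-27a-3p 8mer, 25 were higher (4.22%) and 3 lower (0.506%). For miR-24-3p the shares were closer to those of genes without a site, with 19 higher (2.28%) and 8 lower (0.958%) of 835. Of the 64 genes with 8mers of both miR-23a-3p and miR-27a-3p, 7 were higher (10.9%) and none was lower. These counts changed with single libraries. With a miR-23a-3p or miR-27a-3p 8mer 45 genes were called higher (3.76%), and 11 were without Wt2260M2, 22 without Wt2261M2, 38 without Wt2262M2, 12 without Ako2271M2, 18 without Ako2272M2 and 26 without Ako2273M2. In these fits the share ran from 0.919% to 3.17%, and that of genes without a site from 0.278% to 1.41%. The 7 genes with both 8mers became 3 without Wt2260M2, Wt2261M2, Ako2271M2 or Ako2272M2, 4 without Ako2273M2 and 6 without Wt2262M2.

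Most genes with a site were not called. With any miR-23a-3p site, 8mer or not, 2.59% of 1585 genes were higher and 1.32% lower. With any miR-27a-3p site 2.61% of 1650 were higher and 0.727% lower. With 2 or more sites the share higher was 2.55% for miR-23a-3p, 2.25% for miR-27a-3p and 2.84% for miR-24-3p. With sites of all 3 it was 3.38% of 148, with 2.03% lower. With 2 or more 8mers of miR-23a-3p and miR-27a-3p together it was 9.85% of 132. The median change was 0.015 for the genes with a miR-23a-3p 8mer, 0.023 for those with a miR-27a-3p 8mer and -0.001 for those without a site. Genes with sites also have longer 3′ UTRs, with a median of 2063 bases against 724. The tested genes were also divided into 4 classes of equal size by 3′ UTR length. In each class a larger share of genes with any site than without was higher, 5.43% against 2.28% in the shortest class and 1.18% against 0.469% in the longest. Outside chromosome 8 the shares were 42 of 1143 genes with a miR-23a-3p or miR-27a-3p 8mer (3.67%) and 78 of 5429 genes without a site (1.44%). The share of 8mer genes called higher was above that of genes without a site in all 15 alternatives examined for this count. These ran from single libraries left out to other scalings and reuse the same M2 libraries, so they are not independent. The fit without a filter and the groups from the treatment field were not among them. The setting with only the libraries whose labels agree, which has a lone wildtype library, brought the shares closer together.

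**Figure D4:**
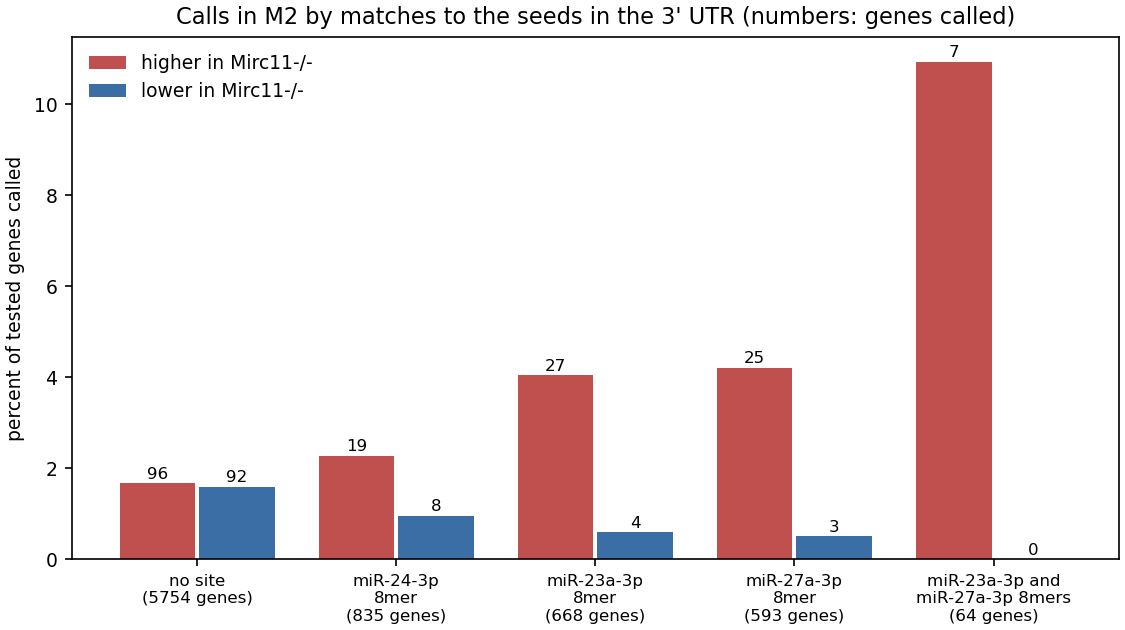
Percent of tested genes called higher (red) or lower (blue) in *Mirc11-/-* M2 macrophages, by the matches to the seeds in their longest 3′ UTR. The number over each bar counts the called genes, and the number under it the tested genes. The red bar rises from 1.67% without a site to 10.9% with 8mers of both miR-23a-3p and miR-27a-3p, while the blue bar falls from 1.599% to 0. Besides genes without a site, the bars are for 8mers only.

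A few of these sites are shown, with 10 bases before the match, for called genes with 8mers of both microRNAs, and for *Adora2b*, which has 3 of miR-27a-3p. The genes were chosen after their values were seen. Capitals mark the match to bases 2 to 8, and the following a completes the 8mer.
*Ppif*, miR-23a-3p: ctttctgctcAATGTGAatt
*Ppif*, miR-27a-3p: cctcctggtcACTGTGAatc
*Sesn2*, miR-23a-3p: cccacccatcAATGTGAaag
*Sesn2*, miR-27a-3p: agagcaaacaACTGTGAatt
*Ccng1*, miR-23a-3p: taaagacataAATGTGAaat
*Ccng1*, miR-27a-3p: gtgaaataaaACTGTGAacc
*Adora2b*, miR-27a-3p: gccgatcctcACTGTGAaag
*Adora2b*, miR-27a-3p: aacttaccttACTGTGAaac
*Adora2b*, miR-27a-3p: actgtgaaacACTGTGAact

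*Ppif*, on chromosome 14, encodes cyclophilin D, a regulator of the mitochondrial permeability pore. It was at 7.51, 7.67 and 7.51 FPKM in wildtype and 13.1, 12.98 and 13.2 FPKM in *Mirc11-/-* libraries. The libraries of each genotype were almost equal, and it rose by 0.72 (SE 0.045, adjusted p = 0.000349), the smallest adjusted p of a gene that rose outside chromosome 8. Its 8mers lie at bases 667 and 569 of a 3′ UTR of 866 bases, which also holds a miR-23a-3p match at base 835 that is no 8mer. *Sesn2*, on chromosome 4, encodes sestrin 2, a stress-induced inhibitor of mTORC1, and was at 6.71, 6.11 and 7.29 FPKM in wildtype against 12.3, 12.3 and 10.9 FPKM in knockout libraries. It rose by 0.74 (SE 0.074, adjusted p = 0.00303). *Ccng1*, on chromosome 11, encodes cyclin G1 and was at 39.3, 38.2 and 42.5 FPKM in wildtype against 58.2, 57.8 and 59.2 FPKM in knockout libraries, with a rise of 0.54 (SE 0.054, adjusted p = 0.00303). In *Ccng1* the 8mers lie close together, at bases 1304 and 1317 of 2316. *Adora2b*, on chromosome 11, encodes the A2B adenosine receptor and was at 7.59, 7.17 and 7.92 FPKM in wildtype against 10.96, 11.7 and 9.91 FPKM in knockout libraries. It rose by 0.47 (SE 0.068, adjusted p = 0.0141), with matches at 72, 306 and 316 of 728 bases. The other genes with both 8mers that were called, *Flrt3*, *Zmat3*, *Fam134c* and *Wbp2*, rose by 0.47, 0.43, 0.28 and 0.25. The calls on *Ppif*, *Sesn2* and *Ccng1* held in all 6 leave-one-out fits, that on *Adora2b* in 3, and those on *Flrt3*, *Zmat3*, *Fam134c* and *Wbp2* in 1 each (adjusted p up to 0.127, 0.165, 0.132 and 0.16).

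Sites also occurred in other genes named above or among the largest rises. *Ednrb* and *Csf1* were chosen after their values were seen. *Ednrb*, encoding the endothelin B receptor, has a miR-23a-3p 8mer and was at 13.2, 13.3 and 11.6 FPKM in wildtype and 24.2, 20.9 and 22.4 FPKM in *Mirc11-/-* libraries. It rose by 0.78 (SE 0.073, adjusted p = 0.00241). *Marcksl1*, encoding an actin-regulating substrate of protein kinase C, has one too beside a miR-24-3p 8mer and was at 51.7, 38.9 and 54.5 FPKM in wildtype against 104, 108 and 77.6 FPKM in knockout libraries. Its rise was 0.98 (SE 0.15, adjusted p = 0.0185). *Ccl7* has a miR-23a-3p 8mer as well. *Csf1*, encoding M-CSF, has a miR-27a-3p 8mer and other matches to miR-27a-3p and miR-24-3p, was at 12.2, 11.9 and 13.8 FPKM in wildtype against 16.6, 18.03 and 19.9 FPKM in knockout libraries and rose by 0.49 (adjusted p = 0.0201). *Ednrb* was called in all 6 leave-one-out fits, and *Marcksl1* and *Csf1* in 3 each. *Arg1*, *Retnla* and *Clec10a* had no 8mer of miR-23a-3p or miR-27a-3p in the 3′ UTRs searched.

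Genes named in the literature as targets of these microRNAs were a separate list, from general knowledge. Of 28 listed genes 24 were tested and limma called none (6 at an unadjusted p under 0.05, against 17.7% of all tested genes). Their median was 0.03. *Tnfaip3*, encoding the NF-kB inhibitor A20, has a miR-23a-3p 8mer and was at 19.4, 21.02 and 18.4 FPKM in wildtype and 18.9, 15.8 and 17.7 FPKM in *Mirc11-/-* libraries, with overlap (log2 change -0.16, SE 0.076, adjusted p = 0.334). *Cblb*, encoding an E3 ubiquitin ligase, has one as well and was at 23.8, 25.6 and 24.6 FPKM in wildtype against 23.2, 22.7 and 30.6 FPKM in knockout libraries (log2 change 0.03, SE 0.11). *Itch*, encoding another E3 ligase, has miR-27a-3p sites and was at 17.5, 16.5 and 16.6 FPKM in wildtype against 17.7, 14.8 and 17.7 FPKM in knockout libraries (log2 change -0.02, SE 0.074). *Tab1*, encoding an adaptor of the kinase TAK1, had a change of 0.04 (SE 0.073). All 4 overlapped between the genotypes. These values concern transcript level and say nothing of the protein.

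Calls were dense on chromosome 8, which carries the deleted cluster. Of its 554 tested genes 62 were called (11.2%), 30 higher and 32 lower, against 273 of 9570 elsewhere (2.85%). It held 5.47% of the tested and 18.5% of the called genes, and 9 of the 18 called genes that changed by at least 1. The share of called genes on the other chromosomes ran from 1.45% on chromosome 17 to 4.56% on chromosome 11. The 62 calls became 26 without Wt2260M2, 33 without Wt2261M2, 46 without Wt2262M2, 20 without Ako2271M2, 33 without Ako2272M2 and 49 without Ako2273M2. In these fits they were 3.61% to 8.84% of the tested genes of chromosome 8, against 0.491% to 2.45% elsewhere, and 16.4% to 32.5% of all calls. Along the chromosome the calls lay mostly around the cluster. Counting tested genes in order from the cluster, 43 of the 200 within 100 places were called (21.5%) and 19 of the 354 beyond (5.37%). In blocks of 50 tested genes the largest count was 16, from place -100 to -51.

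**Figure D5:**
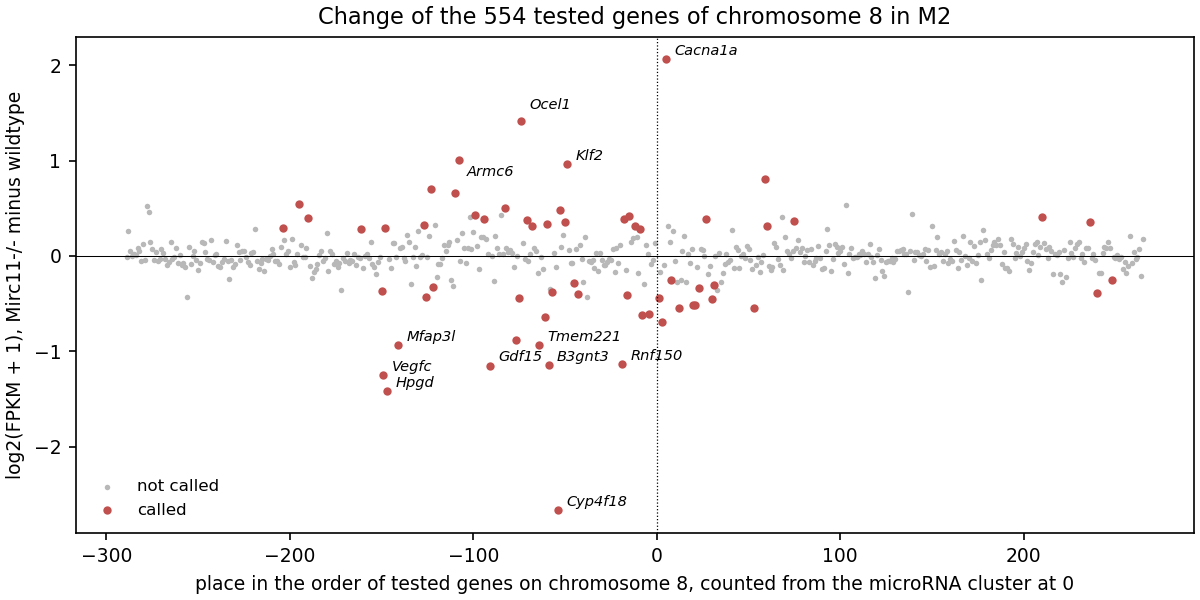
Change of the 554 tested genes of chromosome 8 in their order along the chromosome, counted from the microRNA cluster at 0. Red points are called genes and grey points are not. The called genes crowd around the cluster, lie both above and below 0, and include *Cyp4f18* at the bottom and *Cacna1a* at the top.

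Nearest to the cluster, the 5 tested genes on each side included 4 called. *Il27ra*, encoding a subunit of the interleukin 27 receptor, was at 4.33, 4.12 and 4.06 FPKM in wildtype and 2.34, 2.56 and 2.32 FPKM in *Mirc11-/-* libraries and fell by 0.60 (SE 0.060, adjusted p = 0.00302). *Zswim4*, the next tested gene to the cluster on the other side, was at 6.76, 6.65 and 6.67 FPKM in wildtype against 4.76, 4.58 and 4.65 FPKM in knockout libraries and fell by 0.44 (SE 0.049, adjusted p = 0.00451). *Mri1*, encoding an enzyme of methionine salvage, fell by 0.69 (SE 0.056, adjusted p = 0.00141). *Cacna1a*, encoding the pore-forming subunit of a P/Q-type calcium channel known from neurons, was at 2.38, 2.42 and 2.23 FPKM in wildtype against 13.6, 11.7 and 13.6 FPKM in knockout libraries. It rose by 2.06 (SE 0.069, adjusted p = 1.59e-05), the largest rise of a called gene, and has a miR-27a-3p 8mer at base 474 of 538 in its 3′ UTR. *Cc2d1a*, on the near side, was at 12.5, 11.3 and 12.3 FPKM in wildtype against 12.998, 14.4 and 12.7 FPKM in knockout libraries and was not called (log2 change 0.14, adjusted p = 0.315). *Samd1* (0.02), *Rfx1* (-0.09), *Dcaf15* (-0.05), *D8Ertd738e* (-0.16) and *Ccdc130* (-0.09) were not called either. All 4 calls held in the 6 leave-one-out fits.

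Farther out on chromosome 8, *Ocel1* was at 11.3, 10.6 and 12.3 FPKM in wildtype and 29.8, 36.6 and 30.2 FPKM in *Mirc11-/-* libraries. It rose by 1.41 (SE 0.089, adjusted p = 0.000349). *B3gnt3*, encoding a glycosyltransferase that extends N-acetyllactosamine chains, was at 7.66, 7.81 and 8.34 FPKM in wildtype against 2.91, 3.14 and 3.105 FPKM in knockout libraries and fell by 1.14 (SE 0.057, adjusted p = 9.67e-05). *Haus8*, encoding a subunit of the spindle protein complex augmin, was at 35.2, 40.6 and 37.7 FPKM in wildtype against 19.8, 20.6 and 19.8 FPKM in knockout libraries and fell by 0.88 (SE 0.061, adjusted p = 0.000482). *Klf2*, encoding a transcription factor that restrains inflammatory genes, was at 18.96, 13.3 and 21.6 FPKM in wildtype against 35.3, 43.003 and 28.99 FPKM in knockout libraries and rose by 0.96 (SE 0.18, adjusted p = 0.0354), with wide ranges and a call that held in 2 of the 6 leave-one-out fits. *Prdx2*, encoding a peroxiredoxin, was at 182, 187 and 194 FPKM in wildtype against 129, 143 and 121 FPKM in knockout libraries and fell by 0.52 (SE 0.069, adjusted p = 0.0103). *Armc6* rose by 1.01, and *Rnf150*, *Tmem221* and *Mfap3l* fell by 1.13, 0.94 and 0.93. The call on *Prdx2* held in 5 of these fits and those on *Ocel1*, *B3gnt3*, *Haus8*, *Armc6*, *Rnf150*, *Tmem221* and *Mfap3l* in all 6.

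Outside this chromosome and the groups above, the largest called changes were in genes of mixed function. *Cpne8*, encoding a calcium-dependent membrane-binding protein, was at 0.723, 0.766 and 1.39 FPKM in wildtype and 3.699, 4.34 and 3.21 FPKM in *Mirc11-/-* libraries and rose by 1.29 (SE 0.14, adjusted p = 0.00444). *Pianp* fell by 1.14 (SE 0.12, adjusted p = 0.00308) and *Stac2* by 1.01 (SE 0.18, adjusted p = 0.0269). *Rhoj*, encoding a small GTPase, was at 7.05, 8.68 and 5.77 FPKM in wildtype against 3.47, 3.46 and 4.05 FPKM in knockout libraries and fell by 0.80 (adjusted p = 0.0174). *Mir692-3* and *Mir692-2b* were also called higher, but near-identical copies of this gene can share reads and their values are uncertain. Among called genes with the largest differences of mean FPKM were *Tmsb10*, encoding thymosin beta 10, at 659, 725 and 651 FPKM in wildtype against 851, 937 and 851 FPKM in knockout libraries, and *Cfp*, encoding properdin, at 361, 332 and 353 FPKM in wildtype against 439, 496 and 425 FPKM in knockout libraries, and they rose by 0.37 and 0.37 (adjusted p = 0.0349 and 0.0357). *Cpne8* and *Pianp* were called in all 6 leave-one-out fits, *Stac2* and *Rhoj* in 3 each, and *Tmsb10* and *Cfp* in 1 each.

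The M2 change was also set against the change between the genotypes in the 6 M1 libraries, with a test of the difference in a fit to all 12 libraries. The difference was called for 161 genes (1.59%), with 83 more positive in M2 (0.820%) and 78 more negative (0.770%), and for 52 of the 335 genes called in M2. The sign of the *Arg1* change differed between the polarizations. Its M2 change was 1.00 and its M1 change -1.03, a difference of 2.04 (SE 0.24, adjusted p = 0.00175). *Il1b* had M2 and M1 changes of 0.93 and 0.04 (adjusted p of the difference 0.0262). *Thbs1*, encoding the matrix glycoprotein thrombospondin 1, was at 2.63, 2.48 and 2.89 FPKM in wildtype against 6.49, 5.07 and 5.97 FPKM in knockout libraries in M2 and rose by 0.90 (adjusted p = 0.0028), with a change of -0.52 in M1 (adjusted p of the difference 0.0231). *Retnla* was listed at 0 in all M1 libraries, so its changes cannot be compared. *Clec10a* was at 0.131, 0.0584 and 0.0961 FPKM in wildtype and 0.0639, 0.0507 and 0.108 FPKM in *Mirc11-/-* libraries in M1, so close to 0 that its difference restates the M2 change.

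*Hpgd* and *Vegfc* fell in M2, and the differences from their M1 changes were -1.41 (adjusted p = 0.00175) and -1.33 (adjusted p = 0.000893). In M1 *Hpgd* was at 0, 0.0167 and 0 FPKM in wildtype and 0, 0.0145 and 0 FPKM in *Mirc11-/-* libraries, close to 0 in both genotypes, so that its difference too restates the M2 change. *Vegfc* was at 5.37, 5.95 and 6.63 FPKM in wildtype against 5.84, 6.901 and 6.38 FPKM in knockout libraries in M1, a change of 0.08. *Itgal* had an M2 change of -0.48 and an M1 change of 0.43 (adjusted p of the difference 0.00451). *Acsl1* and *Hmox1*, the latter encoding haem oxygenase 1, were near or above wildtype in M2 (0.29 and 0.20) and below in M1 (-1.73 and -1.17), with differences of 2.01 and 1.37 (adjusted p = 4.31e-05 and 0.00136). *Psat1*, of serine synthesis, and *Fam32a* had small M2 changes (0.18 and 0.22, neither called) and M1 changes of 1.66 and 1.39 (adjusted p of the difference 0.000874 and 5.26e-05). For *Ocel1*, *Cacna1a*, *Gdf15*, *Ccl2* and *Wdfy1* the difference was not called (adjusted p from 0.237 to 0.967), which does not show that the changes were equal.

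Promoters, taken from RefSeq as 250 bases before to 50 bases after each start, were found for 8153 tested genes. Each gene was counted once, as having a motif if any of its promoters held it. STAT6 motifs (TTC and GAA with 4 bases between them) were found for 4 of 20 alternative activation markers (20.0%). They were found for 14 of 147 genes called higher (9.52%) and for 4 of 110 called lower (3.64%). The share was 6.53% of tested genes and 8.01% of all 27025 genes with a promoter. CCAAT, the NF-Y box, was found for 16 of 18 cholesterol synthesis genes (88.9%), against 42.9% of tested genes and 41.1% of all genes with a promoter. A sterol regulatory element was in 1 of these 18, against 1.32% and 1.44%. An E2F motif (TTTCCCGC or TTTGGCGC) was found for 10 of 33 DNA replication genes (30.3%), against 3.61% and 1.798%. Both strands were searched, and a match is a description of letters, not a bound site.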

How the data were processed

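RNA was sequenced from 12 macrophage libraries, 3 in each of 4 groups, of which the 6 titled M2 are compared here. The authors deposited FPKM per gene in a single table. The submitters' processing notes name STAR 2.5.1, Cufflinks, DESeq and the mm9 build, without the role of each. The annotation, filters and strand setting are not given in the sources used here. The authors' own comparison tables, with log2 fold changes and adjusted p-values per transcript, were not used. FPKM carry no counts, so no counting interval is given. Groups follow the titles.

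Changes were tested with limma 3.58.1 in R 4.3.3 on log2(FPKM + 1) with an intensity trend, two-sided, with Benjamini-Hochberg adjustment and a threshold of 0.05, for genes averaging 1 FPKM or more in these libraries. The difference between M2 and M1 used all 12 libraries. The scripts were tested on simulated data. The members and the 44 gene lists were chosen with earlier results of these data known. Named genes are up to 15 called per direction with the largest change, up to 4 per list with the smallest p, up to 6 per direction with the largest FPKM difference, up to 5 per direction of the M2 and M1 difference, 5 on each side of the cluster, and a fixed set. Others are said to be chosen after their values were seen. Of the tested genes 9553 matched RefSeq by symbol and 521 by synonym, and gene order on chromosome 8 is that of GRCm38. Alternatives were the pseudocount, filter, scaling, variance model, samples, labels and each library left out. Some genes are not reported here.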

Additional observations from a re-analysis of the deposited data

Results flagged for a closer look

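The log2 change in M2 differed from that in M1, by the interaction term of limma over all 12 libraries (adjusted p under 0.05), for 28 of the genes named here. The value given for each gene is its M2 change minus its M1 change. Changes were more positive in M2 for *Arg1* (2.04), *Acsl1* (2.01), *Thbs1* (1.42), *Hmox1* (1.37), *Clec10a* (1.35), *Mir692-3* (1.31), *Lpl* (1.17), *Nos2* (0.94), *Il1b* (0.89), *Mfap3l* (0.86), *Ccng1* (0.62), *Zmat3* (0.58), *B3gnt3* (0.54), *Colec12* (0.53) and *Sesn2* (0.51). They were more negative in M2 for *Psat1* (-1.48), *Hpgd* (-1.41), *Vegfc* (-1.33), *Dusp2* (-1.03), *Cyp4f18* (-1.24), *Fam32a* (-1.17), *Rnf150* (-0.96), *Itgal* (-0.91), *Pianp* (-0.87), *Rhoj* (-0.80), *Haus8* (-0.57), *Il27ra* (-0.55) and *Itga5* (-0.46). *Lpl* fell in M2 by 0.43 with an M1 change of -1.60, so its difference is positive although it was lower in both. The same holds for *Mfap3l*, with changes of -0.93 in M2 and -1.79 in M1, and for *B3gnt3*, with -1.14 and -1.68. *Nos2* was at 0.802 to 2.26 FPKM in the M2 libraries. *Cyp4f18* was lower in both polarizations. Its mean was 7.13 FPKM in wildtype against 0.272 FPKM in *Mirc11-/-* libraries in M2. In M1 it was 1.94 against 0.0847 FPKM (log2 change -1.43). Differences of log2(FPKM + 1) understate changes at such levels, so its difference does not show a larger relative fall in M2. *Clec10a*, *Hpgd*, *Rhoj*, *Il27ra*, *Pianp* and *Rnf150* averaged under 1 FPKM in both genotypes in M1, near the floor of log2(FPKM + 1), so their differences mostly restate the M2 change.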

How the results depend on the processing

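The 335 calls in M2 became 511 in the fit to all 12 libraries, 128 without a filter on low values and 1 with groups from the treatment field, which mixes M1 and M2 libraries. With 1 library left out they ranged from 67 to 280. The other 8 settings gave 258 to 398, the one with only the libraries whose labels agree having a lone wildtype library that is assumed to vary like the knockout ones. The 161 differences between M2 and M1 became 83 without the libraries whose treatment field contradicts the title, and ranged from 62 to 251 with 1 library left out. Of 1148 values of the named genes under other settings, 1013 kept direction and side of the threshold and 116 fell short of it, and of 702 values with 1 library left out, 428 and 259 did.

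The sign turned only in genes that were not called. When libraries whose treatment field contradicts the title were dropped, *Cblb* was at -0.0528 and *Tab1* at -0.00925. With 1 library left out, *Cblb* ranged from -0.10 to 0.11, *Itch* from -0.0568 to 0.0645, *Tab1* from -0.0212 to 0.0851, *Samd1* from -0.0225 to 0.0957 and *Dcaf15* from -0.0811 to 0.00606. The cause was not tested.

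Knockout and wildtype libraries share no title number, so the M2 comparison could not be paired. An M1 and an M2 library do share each number, and their deviations from the group means correlated from -0.29 to 0.25, with 3 of 6 libraries closest to their own number, so the numbers were not taken as pairs. With the title number as a replicate block, 128 differences between M2 and M1 were called.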

Other observations

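Several lists not described above held at most 2 calls each, where 3.31% of all tested genes were called. Of 19 tested genes of serine synthesis and ATF4 targets, 2 were higher and none lower, *Sesn2* and *Nupr1*, encoding a stress-induced chromatin protein. *Nupr1* was at 31.6, 31.3 and 37.5 FPKM in wildtype and 50.1, 56.7 and 44.4 FPKM in *Mirc11-/-* libraries and rose by 0.57 (adjusted p = 0.0275), and it kept its call in 2 of the 6 leave-one-out fits. Of 19 immediate early genes *Klf2* was higher and *Dusp2*, encoding a phosphatase of MAP kinases, was lower, at 5.11, 5.89 and 5.39 and 4.49, 4.11 and 3.92 FPKM (log2 change -0.32, adjusted p = 0.0494), and was called in none of the leave-one-out fits (adjusted p up to 0.153). Of 17 tested negative regulators of PI3K and Akt signalling *Sesn2* alone was called, and of 9 members of the IL-1 family *Il1b* and *Il1rn* were. limma called none of 7 Fc receptors, 22 genes of SREBP regulation and fatty acid synthesis and 18 of cholesterol export and lipid storage (2, 8 and 7 at an unadjusted p under 0.05).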
